A study of Rattus norvegicus with 20 samples.

Results

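The comparison described here is between the BYA and BNS rats, 4 samples against 4, of the 20 samples in the series. All were female Sprague-Dawley rats whose mothers had received 2 betamethasone injections of 0.4 mg/kg each on gestational day 15, and the arcuate nucleus, a part of the mediobasal hypothalamus, was taken on postnatal day 15. BYA rats were given N-methyl-D-aspartic acid (NMDA), which triggers infantile spasms in pups primed in this way, on postnatal days 12, 13 and 15, and ACTH, by the labels on days 13, 14 and 15. BNS rats had no spasms and received saline, so the comparison holds NMDA, spasms and ACTH together. The other groups were SNS (prenatal and postnatal saline, no spasms), BYS (betamethasone, spasms, saline) and BYP (betamethasone, spasms and PMX53, an antagonist of the complement receptor C5ar1). The litter of each rat is not given in the labels, and p-values measure only the spread between these samples.

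ACTH (adrenocorticotropin) is made from the Pomc precursor and drives the adrenal cortex to release glucocorticoids. Glucocorticoids act through the receptor Nr3c1, which binds DNA and raises genes such as Fkbp5, Tsc22d3, Klf9 and Sgk1. ACTH also binds the melanocortin receptors Mc3r and Mc4r, which are present in the hypothalamus. The arcuate nucleus holds the Agrp and Npy neurons that promote feeding and the Pomc and Cartpt neurons that restrain it. NMDA opens glutamate receptors, and strong neuronal firing is known to switch on immediate early genes within a short time.

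Levels are log2 intensities of Agilent arrays with 2 dyes, in which each dye channel carried 1 rat. A difference is BYA minus BNS on that log2 scale, with the dye as a covariate, given ± its standard error (SE). A gene was called at an adjusted p under 0.05 in limma with Benjamini-Hochberg adjustment over all 17086 genes. Features of the arrays touch every result. The median signal over background was 6.61 to 10.4 in the BYA samples and 14.0 to 19.8 in the BNS samples, without overlap (two-sided exact permutation p = 0.0286, the smallest that 4 against 4 allows), and its part in the results was not tested. The 4 BNS samples were on 1 slide, BYA replicates 1, 2 and 4 on another and BYA replicate 3 on a further one, so slide and condition cannot be told apart. BYA replicates 3 and 4 each shared an array with a male rat of another series. Which of the animals the channel used for BYA replicate 3 holds is uncertain, so results are also given without it. The Y-linked gene Sry did not settle this, with levels of 7.77 to 8.03 in BYA and 7.88 to 7.91 in BNS. The scanner flagged its probe as well above background in BYA replicate 4 and BNS replicates 2, 3 and 4 and not in BYA replicate 3.

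Of 17086 genes, 20 (0.117%) were called, 14 higher and 6 lower in BYA. When channels were scaled by their medians only, without quantile normalization, 28 were called, 27 higher and 1 lower, of which 3 were among the 20, and the median difference over all genes was 0.11. At an unadjusted p under 0.05, 6.72% of genes were higher and 6.39% lower in BYA, and the median difference over all genes was -0.0028. All 4 BYA values lay above all 4 BNS values in 4.64% of genes with no missing value and below them in 4.01%. Without BYA replicate 3, 171 genes (1.00%) were called, 74 higher and 97 lower, and these included all 20. The shares at an unadjusted p under 0.05 were then 7.21% higher and 8.31% lower. In BNS, replicates 1 and 2 shared an array and so did 3 and 4, as did replicates 1 and 2 of BYA. With the array as a random block (estimated correlation 0.365), limma called only Best2 (adjusted p = 0.011), so that the other 19 calls were lost. Fewer than 20 were called without any other sample, namely 6, 1 and 13 without BYA replicates 1, 2 and 4, and 3, 4, 1 and 1 without BNS replicates 1, 2, 3 and 4.

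Best2, which encodes the bestrophin 2 chloride channel, had the lowest adjusted p. Its levels were 9.38, 9.90, 9.14 and 9.77 in BYA and 8.47, 8.83, 8.07 and 8.44 in BNS. The groups did not overlap, and the difference was 1.096 ± 0.13, or 2.14-fold, with an adjusted p of 0.0011. Its probe lies at chromosome 19, 24804545 to 24804604 in the rn4 coordinates of the array design. Pnma2, an antigen of the paraneoplastic Ma family, measured 11.94, 12.29, 11.94 and 11.90 in BYA and 11.06, 11.44, 11.07 and 11.38 in BNS (rn4 chromosome 15, 46458677 to 46458736). The difference of 0.78 ± 0.11 had an adjusted p of 0.017, and each BYA sample was above each BNS sample. For Pnma2, BNS had the lowest mean of all conditions, since the others averaged 12.51 in SNS, 12.06 in BYS and 12.13 in BYP.

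The other named genes that rose were Csrp1, Nacc2, Csn1s1, Ccdc6, Rnf150 and Or4d6. Csrp1, a LIM-domain protein of the actin cytoskeleton, was 10.87 to 11.36 in BYA and 10.10 to 10.62 in BNS (difference 0.83 ± 0.16). Nacc2, a BTB-domain transcriptional repressor, was 13.38 to 13.60 in BYA and 12.39 to 13.09 in BNS (difference 0.76 ± 0.14). Rnf150, a RING finger protein, was 10.03 to 10.14 in BYA and 9.43 to 9.65 in BNS (difference 0.57 ± 0.11). The increases of Ccdc6, a coiled-coil protein, and Or4d6, an odorant receptor, were 0.62 ± 0.12 and 0.49 ± 0.086. A further Ccdc6 probe, below the filter on dim probes, differed by 0.039. Csn1s1, a milk casein, differed by 0.64 ± 0.12 but was well above background in only 2 of 4 BYA and 3 of 4 BNS samples. These 6 genes each had an adjusted p of 0.045.

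The remaining 6 features that rose had no gene symbol in the files. AABR03128500, a genomic clone, differed by 0.87 ± 0.16. A second probe of the same clone, below the filter on dim probes, differed by -0.28. Probe A_64_P183242 (rn4 chromosome 1, 149786023 to 149786082) differed by 0.86 ± 0.15 and probe A_64_P060962 (rn4 chromosome 20, 46887072 to 46887131) by 0.83 ± 0.14. Probe A_64_P026306 (rn4 chromosome 3, 47782980 to 47783039) differed by 0.67 ± 0.13. Probes A_64_P070399 and A_64_P041704, which the files give no position, differed by 0.61 ± 0.10 and 0.57 ± 0.10. A_64_P041704 was well above background in 3 of 4 BYA and 3 of 4 BNS samples. A_64_P070399 had an adjusted p of 0.033, with 9.27 to 9.33 in BYA and 8.60 to 8.73 in BNS.

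Among the genes that fell, Mgat2 had the greatest difference. Mgat2 is a Golgi enzyme that adds N-acetylglucosamine to the side chains of glycoproteins (rn4 chromosome 6, 91139058 to 91139117). It measured 6.82, 6.80, 8.68 and 7.24 in BYA and 9.46, 9.32, 8.76 and 9.38 in BNS. BYA replicate 3 lay next to the lowest BNS sample, and the other 3 BYA samples were more than 1 log2 unit below it. The difference was -1.85 ± 0.33 (adjusted p = 0.045) with replicate 3 and -2.31 without it. Only 1 of 4 BYA samples was well above background for this probe. Serpinb6a, an intracellular inhibitor of serine proteases, was 10.04 to 10.30 in BYA and 10.64 to 10.73 in BNS (difference -0.49 ± 0.089). XM_213108, an older transcript model described in the files as similar to nucleophosmin, differed by -0.51 ± 0.10. Its level is uncertain, since such a copy can share sequence with the parent gene.

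The other genes that fell were dim. Cenpw, a centromere protein, was not well above background in any BYA sample but was in 4 of 4 BNS samples (measured means 7.68 and 8.17, difference -0.49). Or10ak14, an odorant receptor, had the same detection (measured means 7.58 and 8.08, difference -0.50). The measured levels were 1.405-fold and 1.419-fold lower in BYA, with BYA values that were not well above background. The filter keeps a probe detected in all samples of any 1 condition, so both could pass through a group where they are high. The same holds for Mgat2 and C14h5orf52, which were well above background in 4 of 4 BNS samples but not in every BYA sample. With probes well above background in all 8 samples, 3 genes were called, 3 higher and 0 lower. C14h5orf52, an uncharacterised reading frame, differed by -0.45 ± 0.086 and was well above background in 2 of 4 BYA samples. Each of the 20 features rested on 1 probe after the filter.

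**Figure D1:**
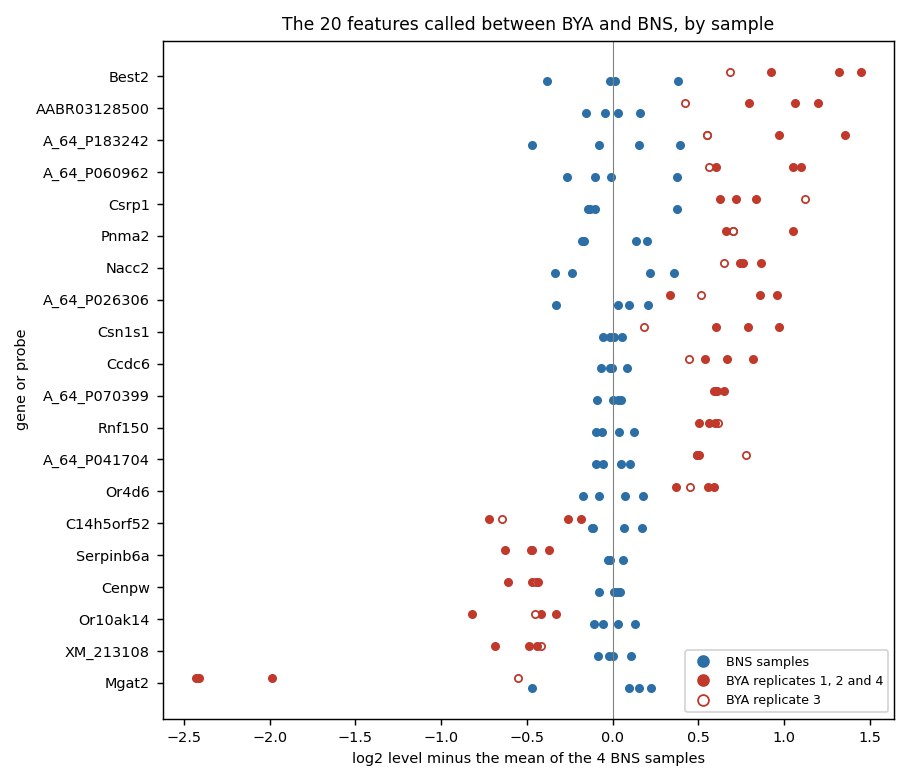
Levels of the 20 called features in each sample, as the log2 level minus the mean of the 4 BNS samples (x axis), with 1 line per gene or probe (y axis). Blue points are BNS samples, filled red points BYA replicates 1, 2 and 4, and the open red point BYA replicate 3. BYA and BNS do not overlap for any feature, and for Mgat2 BYA replicate 3 lies close to the lowest BNS sample.

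The same 20 features were then set against the other spasm groups. Against BYS, which received NMDA without ACTH, none of the 20 was called by limma, and none of all genes was (0.00%, with 1380 genes at an unadjusted p under 0.05). At an unadjusted p under 0.05, 14 of the 20 differed between BYA and BYS. The 20 were chosen on the same BYA samples, so this count and those that follow are descriptions and are not read against the shares of all genes. Against BYP, 0.158% of all genes and 3 of the 20 were called, namely AABR03128500 (0.82), A_64_P041704 (0.51) and Or4d6 (0.45). For all 20, the BYS and the BYP means lay on the same side of the BNS mean as the BYA mean, with BNS shared by these differences. The SNS mean also lay above the BNS mean for each of the 14 that rose and below it for 4 of the 6 that fell. Best2, for example, averaged 9.55 in BYA, 8.45 in BNS, 8.95 in BYS, 9.08 in BYP and 9.59 in SNS. Mgat2 averaged 7.38 in BYA, 9.23 in BNS, 9.15 in BYS, 8.81 in BYP and 9.24 in SNS. Signal over background was 5.66 to 11.3 in SNS, 7.02 to 10.9 in BYP and 13.91 to 19.95 in BYS, so that SNS and BYP were near BYA and BYS near BNS, and its part in these means was not tested. When BYA replicate 3 was left out, 4 of the 20 were called against BYS, where 0.152% of all genes were. These were Mgat2 (difference -2.24, adjusted p = 0.00013), Csn1s1 (0.69), AABR03128500 (0.87) and Best2 (0.70). Among the 4 BYA samples, Mgat2 was well above background in only 1 and Csn1s1 in 2, so these differences rest partly on dim values. Against BYP, 8 of the 20 were then called, against 1.55% of all genes.

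Immediate early genes had the highest median of the 38 gene lists under quantile normalization. These genes are switched on quickly by neuronal activity and many encode transcription factors. Of 22 members tested, 19 were higher in BYA and 3 lower, 11 were higher at an unadjusted p under 0.05 (6.72% of all genes), and none was called. The median difference was 0.67, against -0.0028 over all genes. Fos, a subunit of the AP-1 factor, measured 10.67, 10.47, 8.76 and 11.03 in BYA and 8.63, 8.79, 8.65 and 9.41 in BNS. BYA replicates 1, 2 and 4 were above every BNS sample, and BYA replicate 3 lay among the BNS samples. The difference was 1.36 ± 0.44 (adjusted p = 0.22), and without BYA replicate 3 it was 1.84 (adjusted p = 0.037). Arc, which acts at dendritic synapses, measured 10.80, 10.26, 9.90 and 11.21 in BYA and 9.73, 9.49, 9.36 and 9.94 in BNS, and the difference was 0.91 ± 0.26 (adjusted p = 0.17). Sik1, a kinase induced by cyclic AMP, measured 10.27, 9.85, 9.46 and 10.26 in BYA and 9.28, 9.23, 9.49 and 9.31 in BNS. Again only BYA replicate 3 overlapped BNS, and the difference was 0.64 ± 0.17 (adjusted p = 0.14). The orphan nuclear receptor Nr4a1 differed by 0.77 ± 0.21 (adjusted p = 0.15), and the zinc finger factor Egr2 by 0.87 ± 0.25 (adjusted p = 0.17). Egr2 was well above background in 3 of 4 BYA and 2 of 4 BNS samples.

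Without BYA replicate 3, 14 members of this list were higher at an unadjusted p under 0.05, against 7.21% of all genes. Called were 6 members, against 1.00% of all genes. These were Sik1 (0.82), Nr4a1 (0.94), Egr2 (1.13), Arc (1.12), Fos and Egr1 (1.64, adjusted p = 0.036), a zinc finger factor named after its value was seen. Against BNS, the median of this list was 0.40 in BYS and 0.61 in BYP, differences that share the BNS samples with BYA. The BYS rats spread widely for Fos, at 8.86, 9.16, 11.04 and 10.47, and the BYP rats were at 10.33 to 10.89. The low BYS values were those of replicates 1 and 2, which shared an array, as did replicates 3 and 4. For Sik1, all 4 BYS values (9.26 to 9.50) were near those of BNS, and BYA differed from BYS by 0.60 (unadjusted p = 0.0019, adjusted p = 0.34). The BYP rats, which also had spasms and no ACTH, were at 9.65 to 10.05 for Sik1.

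The cyclic AMP response element, with the letters TGACGTCA (its own reverse complement, so both strands are covered), is bound by CREB and was searched in RefSeq promoters of build GRCr8, from 250 bases before to 50 bases after each start. It was present in 612 of 33469 promoters (1.83%). Of the 22 early genes, 17 had a promoter in the table and 4 held the letters. The windows around it are shown 5′ to 3′ on the gene's strand, with the element in capitals, because they are the members that share it. They lie at chr13:48087874-48087901 (Btg2, minus strand), chr10:17184719-17184746 (Dusp1, plus strand), chr19:40399297-40399324 (Ier2, plus strand) and chr16:18769975-18770002 (Jund, minus strand).
Btg2: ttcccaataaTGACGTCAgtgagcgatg
Dusp1: gcagggcgggTGACGTCAccacccggtc
Ier2: ggcgtttcagTGACGTCActcttactct
Jund: cccacccccaTGACGTCAacccacaatg
Of these 4 genes, Ier2 differed by 0.67 ± 0.25 between BYA and BNS (adjusted p = 0.28). Btg2 differed by 0.12 ± 0.17, Dusp1 by -0.043 ± 0.14 and Jund by -0.0006 ± 0.18, each with an unadjusted p over 0.05. The early genes with the lowest p-values, Sik1, Nr4a1, Egr2 and Arc, were not among the 4. A match of letters does not show a binding site.

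Glucocorticoid receptors and response genes had a median of 0.26. Of 28 members tested, 19 were higher and 9 lower in BYA, 8 were higher at an unadjusted p under 0.05 (6.72% of all genes), none was lower at that p, and none was called. The summed level of the list was 15.71 to 16.40 in BYA and 15.55 to 15.69 in BNS. The receptor itself, Nr3c1, measured 8.29 to 8.54 in BYA and 8.44 to 8.53 in BNS, a difference of -0.11 ± 0.088 (adjusted p = 0.62). Fkbp5, a co-chaperone of the receptor, measured 12.30, 12.49, 10.96 and 12.23 in BYA and 10.95, 11.001, 11.03 and 11.13 in BNS. The values of BYA replicates 1, 2 and 4 stood more than 1 log2 unit above BNS, whereas replicate 3 was within BNS. The difference was 0.97 ± 0.24 (adjusted p = 0.12) with replicate 3 and 1.31 (adjusted p = 0.0018) without it. Klf9, a zinc finger factor, measured 12.05, 11.97, 11.80 and 12.06 in BYA and 11.63, 11.03, 11.04 and 11.23 in BNS. Its groups did not overlap, with a difference of 0.74 ± 0.16 (adjusted p = 0.089). Klf15, a related factor, measured 11.08, 11.25, 10.40 and 11.23 in BYA and 10.46, 10.47, 10.23 and 10.59 in BNS (difference 0.55 ± 0.16, adjusted p = 0.18).

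Nfkbia, the inhibitor of NF-kB, is in this list and in that of cytokines. It measured 11.38, 10.77, 10.04 and 11.10 in BYA and 9.83, 9.92, 10.03 and 10.06 in BNS, a difference of 0.86 ± 0.27 (adjusted p = 0.21). Without BYA replicate 3, 11 members were higher at an unadjusted p under 0.05 (7.21% of all genes). Called were 4 (1.00% of all genes), namely Klf9 (0.82), Fkbp5, Klf15 (0.72) and Nfkbia (1.14). For other known targets, the difference with all samples was 0.039 ± 0.47 for Tsc22d3 and 0.18 ± 0.16 for Sgk1, with adjusted p-values of 0.98 and 0.66. The 95% interval of the Tsc22d3 difference, -0.95 to 1.03, leaves room for changes in both directions. Against BNS, the medians of the list were 0.23 in BYS and 0.43 in BYP, groups that received no ACTH. Klf9 and Klf15 differed between BYA and BYS by 0.52 and 0.48, at unadjusted p-values of 0.0051 and 0.0087 and adjusted p-values of 0.39 and 0.46. The difference between BYA and BYS was 0.25 for Fkbp5 (unadjusted p = 0.31). In BYP, Klf9 measured 11.86 to 12.49, Klf15 10.19 to 10.96 and Fkbp5 12.04 to 12.57. The full palindrome of the glucocorticoid response element was in none of the 23 promoters of this list that were in the table and in 5 of all 33469 (0.0149%), searched on both strands.

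Wide gaps between the groups were seen among cytokines. Ccl3, a chemokine that attracts macrophages, measured 11.90, 10.97, 9.99 and 12.47 in BYA and 7.76, 7.66, 7.71 and 7.77 in BNS. Every BYA sample was at least 2 log2 units above every BNS sample, and BYA replicate 3 was the lowest of the 4. The difference was 3.61 ± 0.80 with an adjusted p of 0.082, in a fit that shares 1 spread per gene over all 20 samples. In BNS, 2 of 4 samples were well above background for Ccl3. In BYS, Ccl3 measured 7.79, 7.91, 12.04 and 12.08, where replicates 1 and 2 shared an array and so did replicates 3 and 4. Ccl4, a related chemokine, was 9.53, 8.87, 8.30 and 10.25 in BYA and 7.36 to 7.46 in BNS, where no sample was well above background. The measured levels of Ccl4 were 3.525-fold higher in BYA (adjusted p = 0.13), set against BNS values that were not well above background. Il1b, the cytokine interleukin 1 beta, was 9.09, 8.63, 7.61 and 8.99 in BYA and 7.44 to 7.51 in BNS. It was well above background in 3 of 4 BYA and 2 of 4 BNS samples. BYA replicate 3 was nearest to BNS, and the difference was 1.097 ± 0.28 (adjusted p = 0.13).

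Of the 22 genes of cytokines and NF-kB tested, 16 were higher and 6 lower in BYA, 6 were higher at an unadjusted p under 0.05 (6.72% of all genes), and none was called. The median was only 0.11, so that the wide differences were those of a few members. Without BYA replicate 3, Ccl3 (4.08, adjusted p = 0.031), Ccl4 (adjusted p = 0.04), Il1b (1.44, adjusted p = 0.012) and Nfkbia (adjusted p = 0.037) were called. So were the chemokine Ccl2 (3.57, adjusted p = 0.03) and the cytokine Il1a (0.94, adjusted p = 0.024), named after their values were seen. These were 6 of the 22 members, against 1.00% of all genes called without that replicate. Against BYS, the BYA differences were 1.38 for Ccl3, 0.70 for Ccl4 and 0.58 for Il1b, with unadjusted p-values of 0.1, 0.15 and 0.054. For these genes BYS replicates 1 and 2 were near BNS and replicates 3 and 4 were higher, so each BYS mean averages both. Il1b, for example, measured 7.53, 7.52, 8.55 and 8.39 in BYS. Against BNS, the medians of the list were 0.31 in BYS and 0.48 in BYP.

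**Figure D2:**
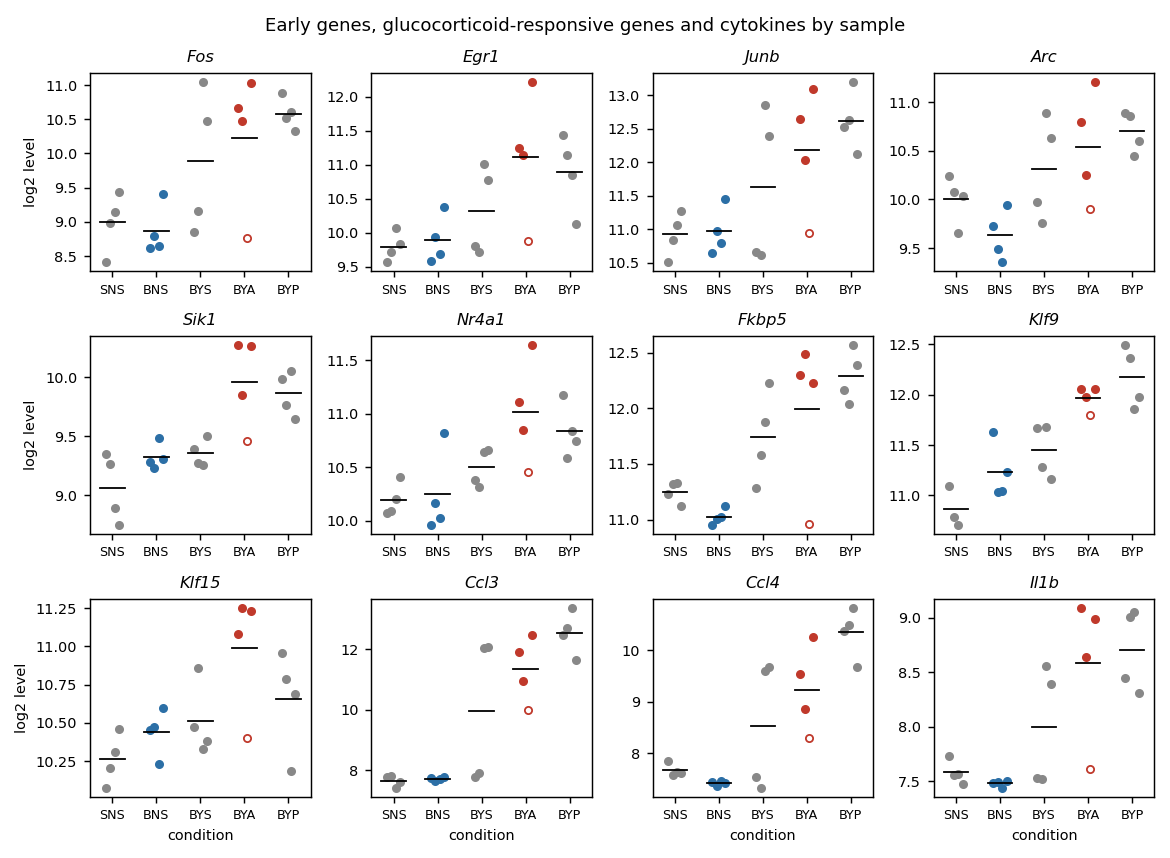
Log2 levels (y axis) of 12 early, glucocorticoid-responsive and cytokine genes in each sample of the 5 conditions (x axis), with a black line at the mean of the condition. Red is BYA with replicate 3 open, blue is BNS and grey are the other conditions, and the y axes differ between panels. BYA replicate 3 lies at or near the BNS samples for Fos, Fkbp5 and Il1b but not for Klf9 or Ccl3.

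Microglia are a known source of such cytokines. Of 15 microglial markers, 3 were higher and 12 lower, 1 and 2 of them at an unadjusted p under 0.05, and the median was -0.067. The summed level of the list was 15.29 to 15.67 in BYA and 15.43 to 15.70 in BNS, with overlap, and its part in the cytokine values was not tested. Cx3cr1, the fractalkine receptor, differed by 0.50 ± 0.16 and Gpr34, a lysophosphatidylserine receptor, by -1.03 ± 0.33, with adjusted p-values of 0.21 and 0.22. Gpr34 was 9.91, 9.99, 10.93 and 9.75 in BYA and 11.36, 11.21, 10.83 and 11.31 in BNS, and BYA replicate 3 again lay among the BNS samples. Cx3cr1 differed between BYA and BYS by 1.00 (unadjusted p = 6.5e-06, adjusted p = 0.11). Complement genes had a median of 0.043, with 1 of 16, C4a, at an unadjusted p under 0.05 (0.37 ± 0.15). C5ar1, the target of PMX53, was 7.39 to 7.99 in BYA, where no sample was well above background, and 7.62 to 7.80 in BNS, where 2 of 4 were.

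The neuropeptides that define the arcuate nucleus were well above background in all 8 samples for each of the 15 genes, Th included. Of these, 8 were higher and 7 lower, none had an unadjusted p under 0.05, and the median was 0.0098, or 0.40 with median scaling. Pomc, the ACTH precursor, measured 14.60, 14.63, 13.94 and 14.42 in BYA and 14.16, 14.50, 15.02 and 14.34 in BNS. The groups overlapped, and the 95% interval of the difference was -0.68 to 0.46, so that a change within it was not detectable here. Agrp was 14.84 to 14.98 in BYA but 13.88 to 16.03 in BNS. Npy was 14.56 to 14.97 in BYA and 14.02 to 15.38 in BNS, and BNS was here too the more spread of the groups. Cartpt, the other anorexigenic peptide, differed by 0.26 ± 0.18 (adjusted p = 0.54). The melanocortin receptors Mc3r and Mc4r differed by 0.12 ± 0.24 and 0.10 ± 0.13, and the releasing hormone Crh by -0.052 ± 0.39, each with an unadjusted p over 0.05. Of the 9 genes of the melanocortin and corticotropin system tested, 1 had an unadjusted p under 0.05, namely Mrap2, a melanocortin receptor accessory protein (-0.38 ± 0.18, adjusted p = 0.38).

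**Figure D3:**
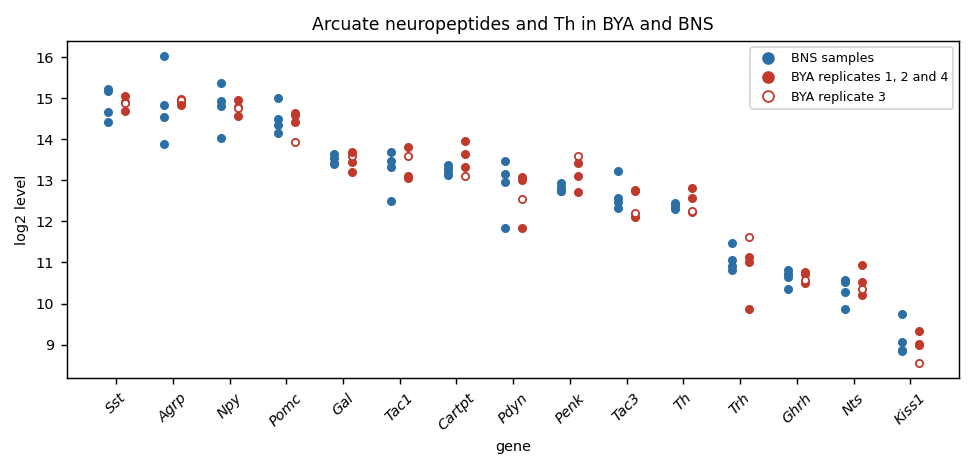
Log2 levels (y axis) of arcuate neuropeptide genes and Th (x axis) in each BNS sample (blue) and each BYA sample (red, replicate 3 open). The groups overlap for every gene shown, and Agrp ranges more widely in BNS (13.88 to 16.03) than in BYA (14.84 to 14.98).

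The lists of general neurons and of glutamate, GABA, acetylcholine and dopamine synapses had small positive medians, and that of the serotonin synapse had a negative one. Of 8 serotonin synapse genes, 2 were higher and 6 lower, none with an unadjusted p under 0.05, and the median was -0.090. The acetylcholine and dopamine synapse lists had medians of 0.14 and 0.054, with 10 of 13 and 7 of 10 genes higher and 1 of each at an unadjusted p under 0.05. Of 13 genes of general neurons and vesicle release, 11 were higher and 2 had an unadjusted p under 0.05 (median 0.19). Syt1, the calcium sensor of synaptic vesicles, was 8.63 to 9.17 in BYA and 8.35 to 8.66 in BNS (difference 0.46 ± 0.13, adjusted p = 0.16), and it was called without BYA replicate 3 (0.56, adjusted p = 0.041). Of 41 glutamate synapse genes, 30 were higher and 5 had an unadjusted p under 0.05 (median 0.095). The NMDA receptor subunit Grin2a measured 8.93, 8.78, 8.62 and 8.94 in BYA and 7.05, 7.54, 8.58 and 8.44 in BNS (difference 0.92 ± 0.24, adjusted p = 0.14). The low BNS values were those of replicates 1 and 2, which shared an array, and with the array as a random block the adjusted p was 0.45. Grin2c and Grin2b differed by 0.51 ± 0.20 and 0.18 ± 0.072, and the AMPA receptor subunit Gria1 by 0.45 ± 0.20. Grin2b was well above background in 2 of 4 BYA and 2 of 4 BNS samples. Of 31 GABA synapse genes, 19 were higher and 2 had an unadjusted p under 0.05 (median 0.076). Among them was Gabarap, a trafficking protein of GABA-A receptors (0.28 ± 0.12, adjusted p = 0.33).

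BNS replicates 1 and 2 were also the low samples for Scg3. Scg3, a granin of secretory granules, was 11.24, 11.55, 11.62 and 10.93 in BYA and 8.32, 8.78, 11.08 and 11.25 in BNS. Its difference of 1.48 ± 0.47 had an adjusted p of 0.22, and 0.51 with arrays as random blocks. The difference was 0.93 without BNS replicate 1 and 1.97 without BNS replicate 4. Camk2g, a subunit of a calcium-dependent kinase, was 11.73 to 12.14 in BYA and 10.96 to 11.37 in BNS (difference 0.74 ± 0.23). Of 57 synaptic G proteins, cyclases and kinases, 5 were higher and 1 lower at an unadjusted p under 0.05, and of 23 voltage-gated and inward rectifier channels 4 were higher. Of 24 genes linked to infantile spasms in people, 17 were higher, 4 at an unadjusted p under 0.05, with a median of 0.10. The histone deacetylase Hdac4 (0.40 ± 0.12) and the DNA demethylases Tet3 (0.36 ± 0.12) and Tet1 (0.31 ± 0.14) were the 3 of 18 genes of DNA methylation and histone deacetylation at that p.

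Vessel and cell division genes were mostly lower in BYA. Of 17 genes of blood vessels and meninges, 13 were lower, 4 at an unadjusted p under 0.05 (6.39% of all genes), 1 was higher at that p, and the median was -0.21. Kdr, a main receptor of vascular endothelial growth factor, measured 11.84, 11.36, 11.82 and 11.49 in BYA and 12.45, 12.05, 12.22 and 12.31 in BNS. The groups did not overlap (difference -0.63 ± 0.14, adjusted p = 0.082). Flt1, another receptor of that factor, was 7.60 to 8.03 in BYA and 8.09 to 8.21 in BNS, and 2 of 4 BYA samples were well above background. Between BYA and BYS, Kdr and Flt1 differed by -0.45 and -0.32 (unadjusted p = 0.0042 and 0.0057). The other members lower at that p were the pericyte channel Kcnj8 (-0.39 ± 0.15) and the transporter Slco1a4 (-0.45 ± 0.17). In bulk tissue, fewer cells of a type and less RNA per cell cannot be told apart.

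Of 14 cell division genes, 12 were lower, 5 at an unadjusted p under 0.05, with a median of -0.23. Ube2c, Ccnb1 and Ccna2, which act in the passage through mitosis, differed by -0.41 ± 0.11, -0.39 ± 0.12 and -0.63 ± 0.21. Ube2c was 8.19, 8.14, 8.55 and 7.94 in BYA and 8.61, 8.52, 8.64 and 8.70 in BNS. The list was dim, with only 4 of 14 members well above background in all 8 samples, and signal over background was lower in BYA, as given above. The medians of the list against BNS were -0.026 in BYS and -0.033 in BYP. Odorant, vomeronasal and taste receptors, also dim, had 13 members higher and 26 lower of 98 at an unadjusted p under 0.05, where 6.72% of all genes were higher and 6.39% lower. Of the 98, 2 were called (0.117% of all genes). Only 19 of the 98 were well above background in all 8 samples, and the part of low signal in these counts was not tested.

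Metalloproteinases and their inhibitors held differences both ways. Timp3, an inhibitor of metalloproteinases, was 9.49, 9.39, 9.14 and 9.55 in BYA and 8.72, 8.80, 8.51 and 8.57 in BNS (difference 0.74 ± 0.16, adjusted p = 0.076). The membrane-bound Mmp15 differed by 0.40 ± 0.10. A probe that the files name Adam10 was 10.59, 10.77, 10.997 and 10.84 in BYA and 11.63, 11.46, 11.17 and 11.39 in BNS (difference -0.61 ± 0.12, adjusted p = 0.064). Its accession is that of a non-coding transcript model, and in the array design it lies on the plus strand, whereas both probes of the Adam10 messenger RNA lie on the minus strand. Those probes differed by 0.21 and -0.0039 but were dim and did not pass the filter, so they cannot show how the messenger RNA changed. By strand and accession, the value is not read as that of the protease's transcript, and its source was not tested. Timp3 (0.84) and the probe named Adam10 (-0.67) were called without BYA replicate 3, as were Kdr (-0.67) and Ube2c (-0.52). Timp3 differed between BYA and BYS by -0.23 (unadjusted p = 0.15).

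Housekeeping lists were close to the median of all genes. Medians were -0.048 for 79 ribosomal proteins, -0.013 for 78 genes of oxidative phosphorylation and -0.054 for 37 proteasome subunits, and they were 0.435, 0.39 and 0.31 with median scaling. Rpl27a, a ribosomal protein, measured 13.67, 14.26, 15.03 and 14.61 in BYA and 15.11, 15.14, 15.15 and 15.22 in BNS (difference -0.76 ± 0.20, adjusted p = 0.14). Astrocyte, tanycyte and oligodendrocyte lists had medians of 0.075, -0.17 (0.043 with median scaling) and 0.11, with at most 1 member of each at an unadjusted p under 0.05 in either direction. Leaving out 1 sample in turn gave 0.038 (without BYA replicate 3) to 0.11 for astrocytes, -0.27 to 0.0052 (without BNS replicate 3) for tanycytes and -0.010 (without BYA replicate 1) to 0.22 (without BYA replicate 2) for oligodendrocytes.

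Markers of tissue at the borders of the dissection overlapped between the groups in their summed levels. Choroid plexus markers summed to 11.99 to 12.46 in BYA and 11.96 to 12.30 in BNS, and Kl, Slc4a5, Clic6, Kcnj13, Sostdc1 and F5 did not pass the filter. Pituitary markers summed to 12.37 to 12.82 and 12.14 to 12.76, and Gh1, Prl, Tshb, Fshb and Pou1f1 did not pass the filter. Thalamus, ventromedial hypothalamus, magnocellular neuron and red blood cell markers overlapped as well, with red blood cell sums of 17.25 to 18.09 in BYA and 17.40 to 17.85 in BNS. No member of these 6 lists had an unadjusted p under 0.05. Over all 38 lists, 35 sums overlapped and 3 were higher in every BYA sample, namely those of glucocorticoid response, the acetylcholine synapse and the infantile spasms genes. Among single genes, all BYA values lay above all BNS values in 4.64%. The gaps were narrow, with a lowest BYA sum of 15.71, 13.96 and 16.06 and a highest BNS sum of 15.69, 13.90 and 16.03.

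**Figure D4:**
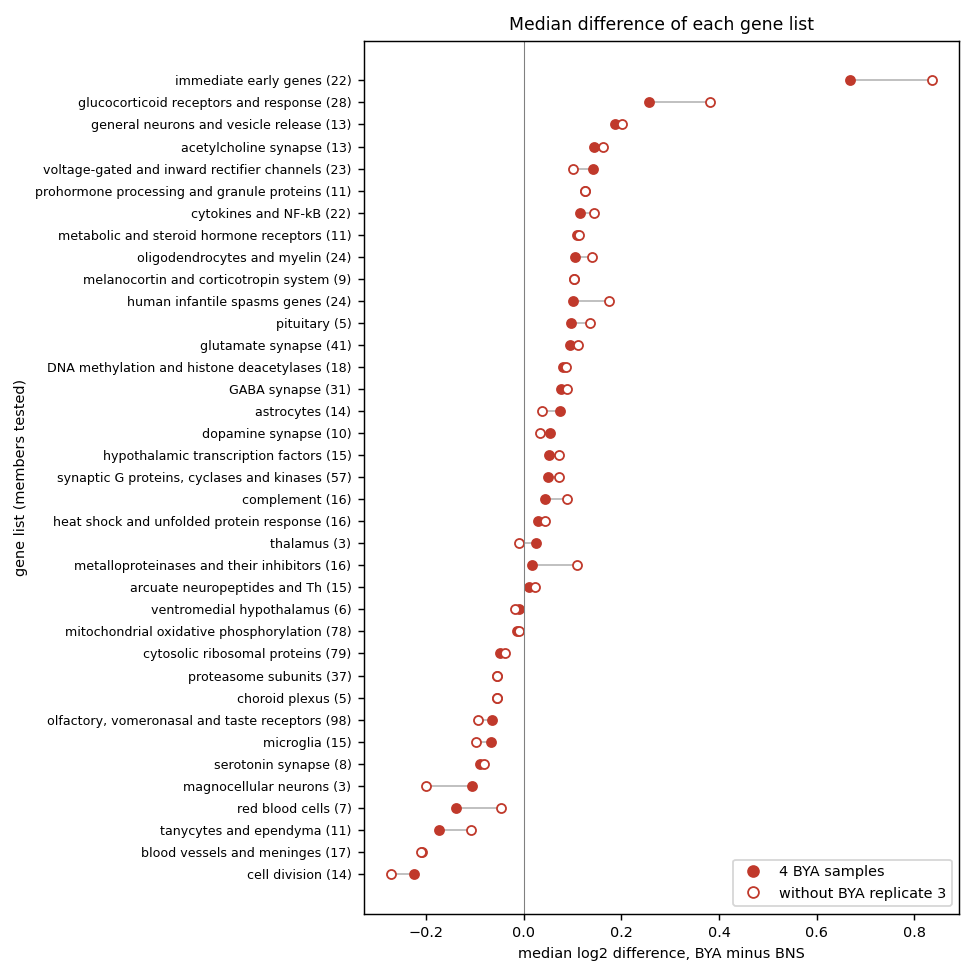
Median log2 difference, BYA minus BNS (x axis), of 37 gene lists with the number of members tested in brackets (y axis). Filled points use all 4 BYA samples and open points leave out BYA replicate 3. The median of the immediate early genes is 0.67 with and 0.84 without that sample, and that of the glucocorticoid list 0.26 and 0.38.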

How the data were processed

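Arcuate nucleus RNA of 20 female rats was measured on 11 rat arrays on 6 slides, each array taking a Cy3- and a Cy5-labelled sample. The authors deposited 1 file per array, in which mean and background intensities are scanner values without normalization. Per the file headers, Feature Extraction 11.5.1.1 wrote them (10.7.3.1 by the submitters' notes), and the processed intensities are background-subtracted and dye-normalized. Flags with the values 0 or 1 are other deposited columns. The 82 columns of the other channel on the arrays shared with male rats of another series were not used, nor were the scanner's ratios and p-values. On the array of BYA replicate 3, which channel holds the male rat is uncertain, as given above.

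limma's normexp (offset 50) corrected the background, followed by log2 and quantile normalization over the 20 channels. Outlier spots (1.18%) were left out and spots averaged. A probe was kept if, in every one of the 4 samples of some condition, a share of at least 0.5 of its spots exceeded background by the scanner's flag (19883 probes, 17086 genes), and a gene's kept probes with a value in every sample were averaged. This left out a kept probe of 301 genes, none of them called, and a gene with no such probe took the one with the fewest missing values. Of 30367 probes, 18643 (61.4%) matched RefSeq symbols. limma fitted condition and dye over all 20 samples, with Benjamini-Hochberg adjustment. Scripts were tested on simulated data. The software was limma 3.58.1 with statmod 1.5.0 in R 4.3.3.

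The comparison, the 38 gene lists and the tests were chosen with earlier results of these data known. Named were all called genes, up to 4 members per list with the lowest p, and a fixed set of genes, with values printed for part of them. Some list members are not reported here. Egr1, Junb, Ccl2 and Il1a were added after their values were seen, and Btg2, Dusp1, Ier2 and Jund for a promoter motif. Replicate numbers of BYA and BNS did not pair the samples, with correlations of deviations from -0.222 to 0.0466. Alternatives covered scaling, signal, filters, blocks, tests and left-out samples. Precision is limited by how many arrays there were.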

Additional observations from a re-analysis of the deposited data

Results flagged for a closer look

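Of 223 groups of 4 samples checked, over 112 genes, 14 had 1 sample far from the other 3, where chance flags about 1 in 20. In BYA, replicate 3 stood apart for Fkbp5 (10.96, against 12.23 for the nearest sample) and for probe A_64_P041704 (8.72). BYA replicate 2 stood apart for Pnma2 (12.29) and Kcnj8 (8.96), replicate 4 for Rpsa (13.83) and Scn3a (10.31), and replicate 1 for Gnai3 (11.51). In BNS, replicate 1 stood apart for Csrp1 (10.62), Serpinb6a (10.73), Flt1 (8.21) and Gal3st1 (10.01). BNS replicate 2 stood apart for Rpl4 (16.09), and replicate 3 for Ndufa4 (15.01) and Gpr17 (8.54).

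Of the 20 features called between BYA and BNS, 3 also differed between BYA and BYP by limma's test of that difference, in which the BYA samples are those on which the 20 were chosen. The BYA minus BYP difference was 0.82 for AABR03128500, 0.51 for A_64_P041704 and 0.45 for Or4d6, with adjusted p-values of 0.049, 0.049 and 0.049.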

How the results depend on the processing

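The 20 calls depended on the processing. The number called was 1 with the array as a random block (estimated correlation 0.365) and 858 with the slide as a random block (estimated correlation -0.128). Slide and condition cannot be told apart here, so no conclusion is drawn from the slide block. The number called was 65 with the scanner's processed signals and 328 with loess and Aquantile on arrays with 2 samples (only 2 BYA samples). It was 3 with probes well above background in all 8 samples, 12 without the dye term, 68 with array weights and 3 for each probe by itself. It was 24 with no filter, 28 with median scaling (27 higher, 1 lower), and 170 without BYA replicate 3 and the remaining 19 channels renormalized. limma called 0 with quantile normalization over the 8 channels (2381 at an unadjusted p under 0.05) and 0 with only those 8 samples in the fit (2377). The methods' t-test, on values after removal of the dye effect, called 2015 genes unadjusted (1103 higher, 912 lower) and 0 after Benjamini-Hochberg adjustment. The combined criterion called 1892 (1036 higher, 856 lower). Its fold cut-off was computed here from the spread between samples alone, without the technical spot noise that the study's own criterion includes. Leaving out 1 sample gave 1 to 171. The replicate block, over numbers that did not pair the samples (correlations of deviations 0.0466, 0.0174, -0.002 and -0.222), called 7 genes, 4 of them among the 20. Without BYA replicate 3, 4 of the 20 differed from BYS and 8 from BYP. The causes were not tested. Best2 was called in 22 of 25 alternatives, where the unadjusted t-test and the combined criterion count as calls without adjustment. It was not called with quantile normalization over the 8 channels, with only those 8 samples in the fit, or by the adjusted t-test.

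The medians of immediate early, glucocorticoid, cytokine, vessel and cell division genes kept their sign in every setting for which list medians were computed. These were median scaling, processed signals, the fit with only the 8 samples and each left-out sample, and not the other alternatives. With median scaling, which moved the median of all genes to 0.11, other list medians were 0.27 for DNA methylation, 0.21 for GABA, 0.057 for acetylcholine, 0.40 for arcuate neuropeptides, 0.38 for astrocytes, 0.068 for choroid plexus, 0.435 for ribosomal proteins, 0.23 for dopamine, 0.54 for general neurons, 0.23 for glutamate, 0.37 for heat shock, 0.21 for infantile spasms genes, -0.0905 for melanocortin, 0.023 for hormone receptors, 0.17 for metalloproteinases, 0.39 for oxidative phosphorylation, -0.18 for odorant receptors, 0.32 for pituitary, 0.54 for prohormone processing, 0.31 for proteasome, 0.28 for red blood cells, 0.17 for G proteins and 0.043 for tanycytes. With processed signals they were -0.55 for cell division, 0.45 for glucocorticoid, 0.17 for glutamate, -0.18 for microglia, -0.24 for odorant receptors, -0.28 for serotonin, -0.41 for sex-linked genes, 0.11 for G proteins, 0.31 for thalamus and 0.27 for voltage-gated channels. Over left-out samples, medians ran from 0.034 to 0.093 for DNA methylation, 0.062 to 0.16 for acetylcholine, 0.080 to 0.17 for infantile spasms genes, -0.20 to 0.088 for magnocellular neurons, 0.031 to 0.10 for melanocortin, 0.037 to 0.13 for hormone receptors, 0.0079 to 0.11 for metalloproteinases, -0.16 to -0.0044 for microglia, -0.047 to 0.27 for pituitary, 0.023 to 0.21 for prohormone processing, 0.020 to 0.089 for GABA, 0.025 to 0.094 for dopamine, -0.13 to -0.040 for serotonin, 0.15 to 0.38 for glucocorticoid and -0.23 to -0.11 for vessel genes.

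Single genes changed sign as follows, none of them called with all samples. With median scaling the differences were 0.31 for Pomc, 0.45 for Npy, -0.015 for Mc4r, 0.21 for Rpl6, 0.24 for Rpl4, -0.012 for Grin2b, 0.0064 for Ndufa8, 0.097 for Psmd10 and 0.49 for Jund. With processed signals they were -0.0060 for Agrp, 0.050 for Npy, -0.057 for Tsc22d3, 0.17 for Dusp1 and 0.032 for Jund. With loess they were 0.12 for Pomc, 0.16 for C5ar1 and 0.10 for Jund. Array weights gave 0.0031 for Pomc, 0.074 for Npy and 9.6e-05 for Jund, the array block -0.0071 for Tsc22d3, and the slide block 0.022 for Jund. The 19 renormalized channels gave 0.087 for Pomc, 0.030 for C5ar1 and 0.12 for Jund. Over left-out samples, Pomc ran from -0.26 to 0.087, Agrp from -0.28 to 0.49, Npy from -0.28 to 0.21, Mc3r from -0.0087 to 0.31, Mc4r from -0.021 to 0.17, Crh from -0.23 to 0.16, Tsc22d3 from -0.10 to 0.19, C5ar1 from -0.12 to 0.067, Btg2 from -0.059 to 0.27, Dusp1 from -0.19 to 0.087 and Jund from -0.15 to 0.12.

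With 4 samples a group on separate slides, slide and condition cannot be told apart. Signal over background was lower in BYA, which limits dim probes most.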

Other observations

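Slc18a2, the vesicular monoamine transporter, measured 11.76 to 12.31 in BYA and 10.80 to 11.62 in BNS, without overlap (0.74 ± 0.28, adjusted p = 0.28). In the other spasm groups it measured 11.53 to 12.20 in BYS, overlapping BYA, and 10.16 to 11.47 in BYP, and it differed by -0.25 between BYP and BNS. Klhl30, a gene of the fixed set, was 8.80 to 8.98 in BYA and 9.03 to 9.14 in BNS, also without overlap (-0.23 ± 0.077, adjusted p = 0.23), and its means were 8.59 in BYS and 8.49 in BYP.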
